A study of Homo sapiens with 8 samples.

Results

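The RNA polymerase II regions described here lie where neither mono- nor trimethylation of histone H3 at lysine 4 was listed. In the T47D-MTVL breast cancer line 31113 polymerase regions were listed outside mitochondrial DNA. Of these, 5353 (17.2%, exact 95% interval 16.8 to 17.6%) overlapped no H3K4me1 and no H3K4me3 region by as much as 1 bp, and are called unmarked below. The other 25760, called marked, comprised 11095 regions that overlapped both marks (35.7%), 11516 with H3K4me1 alone (37.0%) and 3149 with H3K4me3 alone (10.1%). The unmarked regions were chosen from the polymerase, H3K4me1 and H3K4me3 lists themselves, so their number and their distance from the marks describe the choice and test nothing.

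T47D-MTVL is a luminal line that responds to progestins and carries a reporter driven by the mouse mammary tumour virus promoter. The progesterone receptor (PR) was mapped by chromatin immunoprecipitation and sequencing in cells given 10 nM of the synthetic progestin R5020 for 5, 30, 60 or 360 min, and in unstimulated cells (0 min). Polymerase, H3K4me1 and H3K4me3 were mapped in unstimulated cells. Every culture had first spent 48 h in charcoal-treated serum and 1 day without serum, and was fixed with formaldehyde. Each of the 8 groups holds 1 library of this single line, so no difference below was tested against replicates. The intervals cover counting error over regions of those libraries and not variation between cultures. They take regions as independent. Of the 5353 unmarked ones, 3101 lay within 10 kb of another and can share its PR sites, so the intervals can be too narrow. Polymerase after hormone was not analysed here, so every statement on PR with hormone sets it against polymerase as it lay before hormone.

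RNA polymerase II gathers at promoters, where it often pauses just after the start of transcription, and it also occupies gene bodies, transcribed enhancers and the stretch past the polyadenylation site where it slows before release. H3K4me3 marks active promoters and H3K4me1 marks enhancers and the flanks of promoters, so a polymerase region with neither mark is not what is usually found at an active start site. PR is a hormone-activated transcription factor that binds mostly away from promoters, often at enhancers. The lists carry no height or score and no read depth. The maps come from whole cultures, so whether polymerase, marks and PR lay on the same DNA molecules cannot be told. An unmarked region is one that no listed H3K4 region touches, which does not show that the mark was absent there. No gene annotation on the build of the files was used, so regions are given by position on hg19, and the label of the cell line could not be set against marker genes.

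Unmarked polymerase regions were narrow. Their median width was 347 bp (quartiles 270 and 503 bp, 95% interval of the median 341 to 353 bp), against 522 bp (341 and 817 bp, interval 517 to 527 bp) for marked regions. Regions with both marks had a median of 631 bp, regions with H3K4me3 alone 523 bp and regions with H3K4me1 alone 434 bp, so the unmarked ones were below each marked class. A width of 1000 bp or more was found in 4.65% of unmarked regions (4.10 to 5.25%) and in 16.6% of marked ones (16.2 to 17.1%). A width of 2000 bp or more was found in 19 unmarked (0.355%, 0.214 to 0.554%) and 561 marked regions (2.18%), against 1.86% of all. Regions with H3K4me3 alone were not wider at that limit, with 5 (0.159%, 0.0516 to 0.370%) and an interval that overlapped the unmarked one. Together the unmarked regions covered 2.35 Mb, or 12.1% of all listed polymerase DNA, from 17.2% of the regions. A wide region touches an H3K4 region more easily, so the rule itself favours narrow regions. In 4 width classes of nearly equal size, with bounds of 320, 482 and 768 bp, the unmarked share of all polymerase regions was, from narrow to wide, 29.5%, 20.5%, 12.2% and 6.53%.

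**Figure D1:**
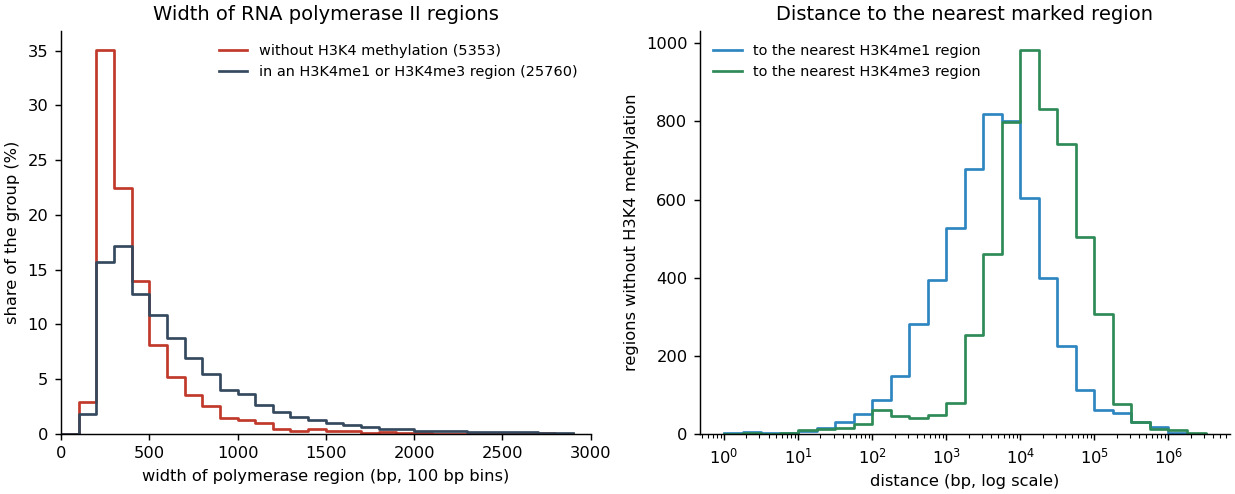
Left, the share of unmarked (red, n = 5353) and marked (dark, n = 25760) polymerase regions in each 100 bp class of width up to 3000 bp. Right, the number of unmarked regions by distance to the nearest H3K4me1 (blue) and H3K4me3 (green) region on a log scale. The red curve lies to the left of the dark one, and the H3K4me1 distances (median 4339 bp) lie to the left of the H3K4me3 distances (median 16015 bp). The H3K4me1 list holds more regions (73263 against 22593).

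The widest unmarked region lay at chr11:71713927-71718464 (4537 bp). It was separated by 11 bp from the fifth widest, from 71710870 to 71713916 (3046 bp), so that both form 1 nearly unbroken stretch, and the nearest H3K4 region carried H3K4me1 and was 2935 bp away. No PR site lay within 10 kb of it at 0, 5 or 30 min, and 1 was listed at a distance of 2900 bp at 60 min and of 2882 bp at 360 min. The second widest, at chr19:5695317-5699081 (3764 bp), lay 3 bp from an H3K4me1 region. The third, at chr19:11031237-11034810 (3573 bp), was 2636 bp from H3K4me1 and over 100 kb from the nearest PR site at each time with hormone (111899 to 111922 bp). Only the fourth of these 5, at chr16:2134078-2137480 (3402 bp), held a PR site, at 30, 60 and 360 min. At 5 min the nearest site to it was 119103 bp away.

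Most unmarked regions lay in the neighbourhood of marked chromatin. The median distance to the nearest region of either mark was 3767 bp (quartiles 1171 and 9633 bp). It was 4339 bp to H3K4me1 (1437 and 11448 bp) and 16015 bp to H3K4me3 (7075 and 40395 bp), and H3K4me1 was the nearer mark for 4725 of the 5353 (88.3%). The H3K4me1 list was also far larger, with 73263 regions over 231.75 Mb, against 22593 over 16.67 Mb for H3K4me3. How often H3K4me1 is the nearer mark elsewhere in the genome was not computed, so these values do not set the unmarked regions apart. Under 1 kb from a mark were 1211 regions (22.6%), at 1 to 5 kb 1858 (34.7%), at 5 to 10 kb 1006 (18.8%), at 10 to 50 kb 1128 (21.1%) and at 50 kb or more 150 (2.80%). Those at 50 kb or more were narrower, with a median of 286 bp (quartiles 253.5 and 343.25 bp), than those at 1 to 5 kb, with 367 bp (276.25 and 539.5 bp).

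At the edge of the rule, 173 unmarked regions (3.23%) lay within 100 bp of an H3K4 region, and 147 marked regions (0.571%) overlapped a mark by 100 bp or less. The nearest unmarked ones lay at chr22:22057420-22058072 and at chr6:149409028-149409235, both 1 bp from an H3K4me1 region, and at chr3:49758571-49759092, 2 bp away. On the other side of the rule stood regions at chr11:565657-566724 and at chr16:53537466-53537820, with 1 bp in H3K4me1, and at chr10:75529083-75529524, with 2 bp in H3K4me3. At the far end, the unmarked region at chr4:29797114-29797323 (209 bp) was 921326 bp from any mark and 2934503 bp from the next polymerase region. Next came chr2:108160845-108161601, 756 bp wide and 670479 bp from a mark, and chr3:7813389-7813578, 189 bp wide and 644667 bp away. The last of the 5 most remote were chr4:116034861-116035150, with 289 bp in width and 496727 bp to a mark, and chr3:65419410-65419696, with 286 and 491407 bp. None of these 5 had a PR site within 10 kb at any time, though the one at chr4:116034861-116035150 had a site 18683 to 18750 bp away at all 4 times with hormone.

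The H3K4 regions left 78881 unmarked stretches of genome between them, with a median length of 6372 bp, and the unmarked polymerase regions fell into 3189 of them. The median length of those 3189 was 21174 bp (quartiles 8691 and 51715 bp), a difference that is built in, since a long stretch has more room for a polymerase region. In 2192 stretches there was 1 polymerase region alone, whereas 158 stretches with 5 or more held 1095 regions and 21 stretches with 10 or more held 262. An H3K4 region lay within 10 kb on both sides of 1784 unmarked regions and on neither side of 1278.

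Most polymerase regions lay near another, though the marked classes differed. Of regions with H3K4me1 alone, 86.9% had another polymerase region within 10 kb, as had 70.8% with both marks and 53.5% with H3K4me3 alone. Another polymerase region was found within 10 kb of 74.5% of unmarked regions (73.3 to 75.7%), against 75.7% of all polymerase regions and 75.9% of marked ones (75.4 to 76.4%), so at this range the unmarked ones were near the background. Within 1 kb the share was 39.6% (38.3 to 40.9%) of unmarked regions, against 55.1% of all and 58.3% (57.7 to 58.9%) of marked ones. The median gap to the next polymerase region was 2030 bp (1825 to 2200 bp) for unmarked and 464 bp (444 to 487 bp) for marked regions. Among the marked, regions with H3K4me3 alone had a longer median gap than the unmarked, 4860 bp (2984 to 7061 bp), and 45.9% (44.2 to 47.7%) of them had a neighbour within 1 kb. A marked polymerase region lay within 10 kb of 2782 unmarked regions (52.0%), and 1208 (22.6%) had other unmarked regions but no marked one in that range. The remaining 1363 (25.5%) had no other polymerase region within 10 kb.

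Unmarked regions linked by gaps of at most 10 kb formed chains. Of the 5353, 2252 (42.1%) stood alone, and the other 3101 formed 929 chains, of which 120 had a marked polymerase region between their members. There were 19 chains of 10 or more, holding 294 regions. Median widths were larger in longer chains up to 9 members, with 296 bp where a region stood alone, 362 bp in pairs, 393 bp in chains of 3 to 4, 434 bp in chains of 5 to 9 and 429.5 bp in chains of 10 or more. Their median distance to a mark did not follow the same order, at 4112, 3074, 3517.5, 3829 and 4802.5 bp.

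The longest chain held 56 unmarked regions at chr3:8553397-8622634. They covered 46.2% of its 69.2 kb, with widths of 219 to 2717 bp and a median gap of 200 bp, and 5 H3K4me1 regions and 10 marked polymerase regions lay among them. No H3K4me3 region lay inside. It held no PR site before hormone and 1 to 2 in each list with hormone. Within it, the stretch from 8575379 to 8597719 alone held 22 unmarked regions with no H3K4 region between them, more than any other stretch between H3K4 regions.

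The next chain, at chr5:35043701-35112813, was as long (69.1 kb) and sparser, with 33 unmarked regions covering 20.5% of it and 18 marked polymerase regions and 7 H3K4me1 regions between its ends. One of its members, from 35048843 to 35049439, held a PR site at each of the 4 times with hormone. The third, at chr21:23375030-23410625 (35.6 kb), had 21 unmarked regions and no H3K4 region or marked polymerase region at all between its ends. Its single PR site was listed at 30 min. The fourth, at chr10:75552314-75567978, was the densest of the 5, since 15 unmarked regions covered 73.0% of 15.7 kb with a median gap of 84.5 bp. It held no mark and no PR site at any time, and 1 PR site lay within 10 kb of it, at 360 min.

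The fifth, at chr9:12802215-12826212 (24.0 kb, 13 unmarked regions), was the richest of the 5 in PR. Each list with hormone had 2 to 3 PR sites inside it, and 4 to 6 where 10 kb on each side were added. At 0 min no PR site lay in any of these 5 chains or within 10 kb of one. Over all 19 chains of 10 or more, 0 of 294 unmarked regions had a PR site within 10 kb at 0 min. The exact interval reaches 1.25%, and 3 counts would be 1.02%. The share over all unmarked regions, 0.747%, lies below both limits, so the 0 does not set long chains apart. Over all polymerase regions it was 2.56%.

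**Figure D2:**
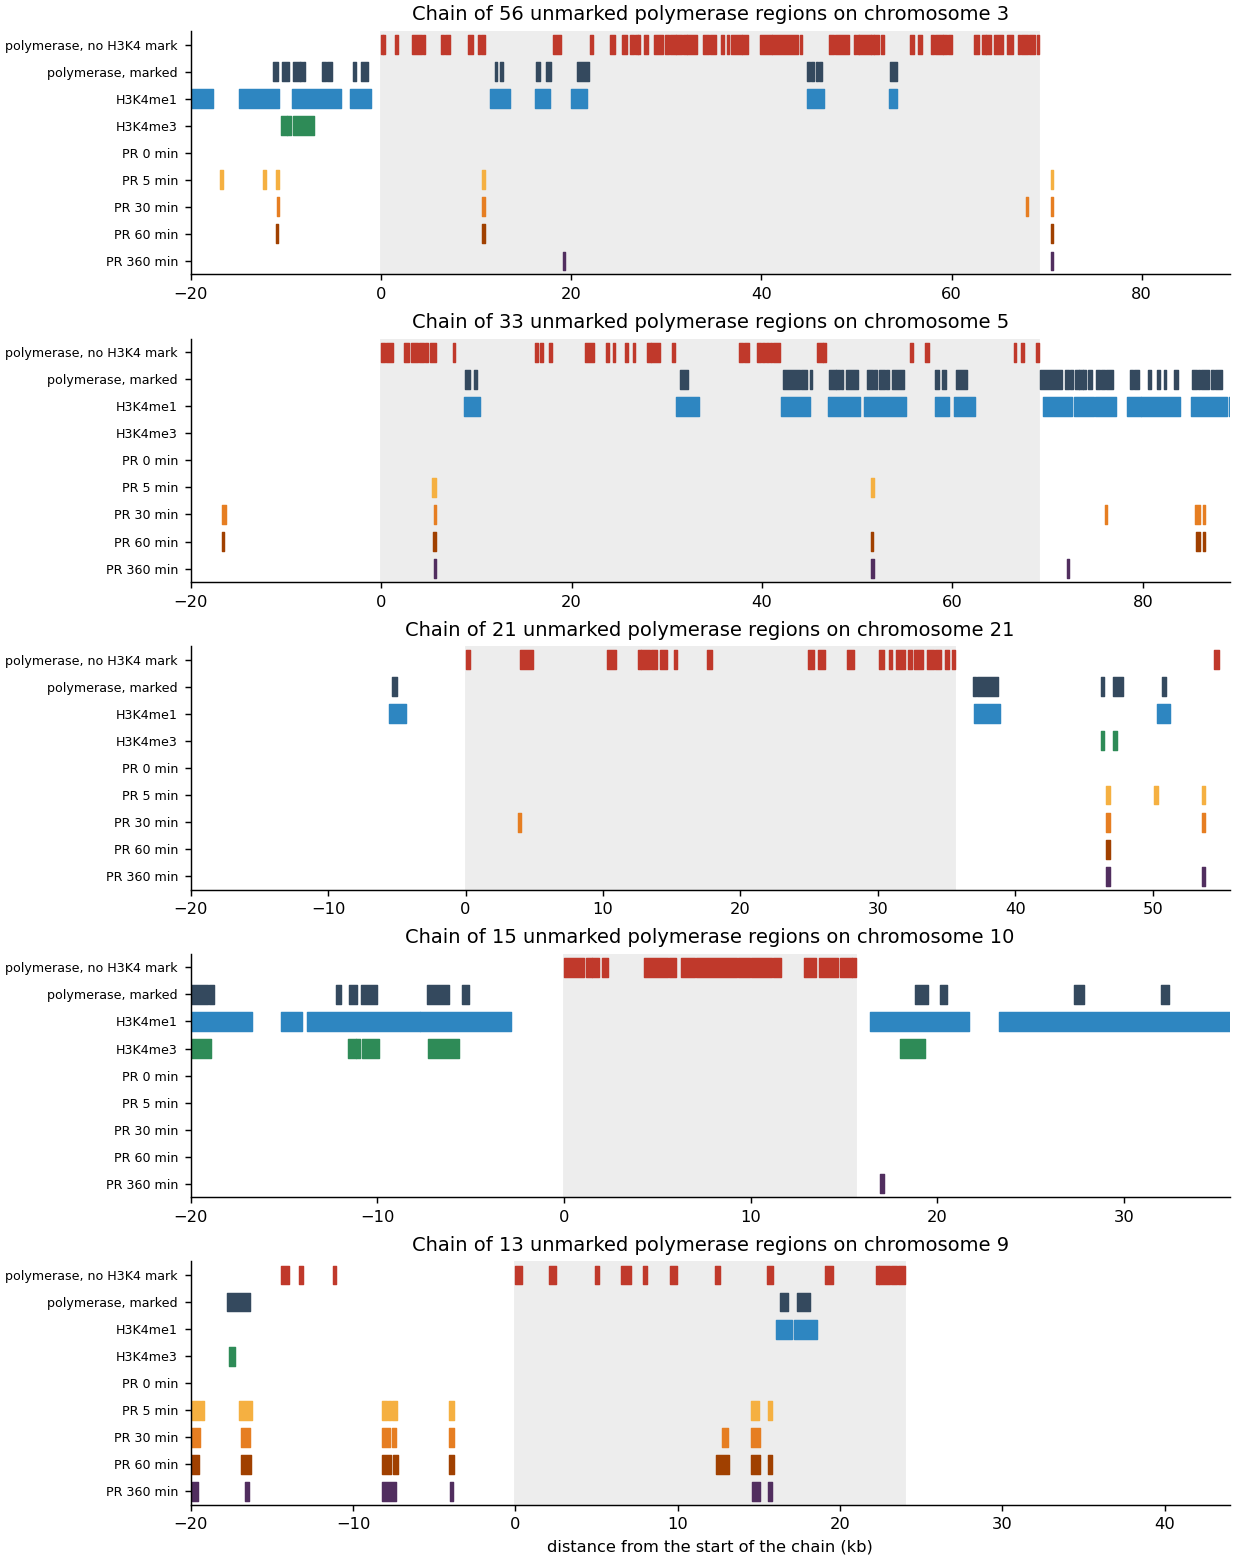
The 5 chains with the most unmarked polymerase regions (grey span, with 20 kb on each side), in kb from the start of each chain; bars are listed regions drawn to scale with a thin outline, 1 row per list. Unmarked polymerase regions (red) fill the spans on chromosomes 3 and 10 most densely, the spans on chromosomes 21 and 10 hold no H3K4 region, and no row shows a PR site at 0 min.

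PR sites were rarely found inside unmarked polymerase regions. At 0 min, 3 of 5353 (0.0560%, 0.0116 to 0.164%) overlapped a PR site, against 0.366% of all polymerase regions and 111 marked ones (0.431%, 0.355 to 0.519%). At 5 min it was 91 (1.70%, 1.37 to 2.08%), against 6.5% of all and 7.50% (7.18 to 7.83%) of marked regions. At 30 min 98 unmarked regions (1.83%) compared with 6.55% and 7.53%, and at 60 min 102 (1.91%, 1.56 to 2.31%) with 6.85% and 7.87% (7.55 to 8.21%). At 360 min there were 85 (1.59%, 1.27 to 1.96%), against 5.83% of all and 6.72% of marked regions. At each of the 4 times with hormone the intervals of unmarked and marked regions were apart, and the unmarked share was 0.227 to 0.243 times the marked one. The class with H3K4me3 alone came closest, with 3.18% (2.59 to 3.85%) at 5 min and 4.13% (3.46 to 4.88%) at 60 min. At 0 min 2 of its 3149 regions held PR (0.0635%, 0.00769 to 0.229%), a share like that of the unmarked regions. Counting a PR site only where its midpoint lay inside gave 1.08 to 1.23% over the 4 times with hormone. With the wider 50% of PR sites the share was 0.953 to 1.14%, and where only the wider 50% of H3K4 regions counted as marks it was 2.41 to 2.94%. With the wider 50% of polymerase regions it was 1.02% at 5 min. The share at 0 min rests on few regions, and with the wider 50% of H3K4 regions it was 0.277% (0.171 to 0.423%), whose interval overlapped that of marked regions (0.395%, 0.319 to 0.484%). It was 0.0187% with the wider 50% of PR sites, and none of the 1464 unmarked regions among the wider 50% of polymerase regions held PR then (exact interval up to 0.252%).

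The 3 unmarked regions with PR before hormone were chr4:70296560-70296847, 287 bp wide, chr7:158387810-158387977, 167 bp wide, and chr5:113493035-113493193, 158 bp wide. Each stood alone, over 100 kb from the next polymerase region (1080431, 109648 and 643153 bp), and the midpoints of PR and polymerase were 5 to 32 bp apart. No PR site was listed in any of the 3 after hormone, and the nearest ones at 60 min were 190719, 27674 and 35718 bp away.

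The lower share in unmarked regions was found in each of the 4 width classes. At 60 min, in the narrowest class (up to 320 bp), 2.21% of unmarked (1.65 to 2.90%) and 5.34% of marked regions (4.76 to 5.96%) held a PR site. In the widest class (over 768 bp) these shares were 0.986% (0.321 to 2.29%) and 11.5% (10.8 to 12.3%). Marked regions thus held PR more often the wider they were, at 5.34%, 6.66%, 7.12% and 11.5% from the narrowest to the widest class. Unmarked regions had 2.21%, 1.95%, 1.58% and 0.986% in the same order. These 4 intervals overlapped, which does not decide whether there was a trend, and a trend with width was not tested. For unmarked regions the shares at 5 min were 2.00%, 1.88%, 1.16% and 0.789%. At 360 min they were 1.56%, 1.51%, 1.79% and 1.58%.

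**Figure D3:**
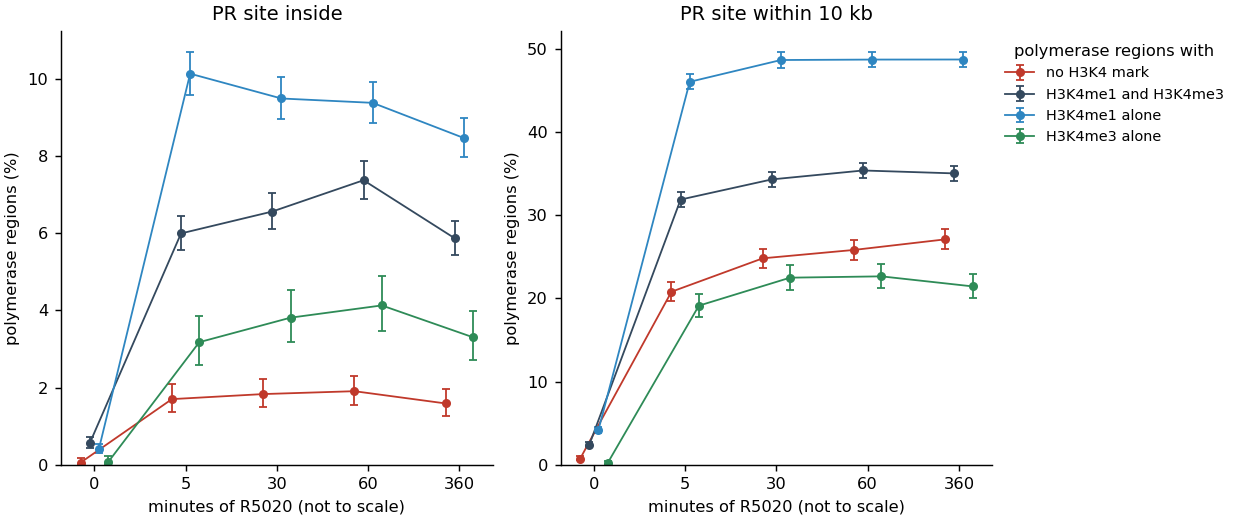
Share of polymerase regions with a PR site inside (left) and within 10 kb (right) at each time of R5020, for unmarked regions (red) and the 3 marked classes; points are shares of regions of 1 library, bars are exact 95% intervals, and the time axis is not to scale. Unmarked regions are lowest on the left at each time with hormone, and on the right they lie above the class with H3K4me3 alone.

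At any time at all, 163 unmarked regions (3.05%) and 2854 marked ones (11.1%) held a PR site. Of the 163, 41 (25.2%, 18.7 to 32.5%) held one at all 4 times with hormone, against 40.9% (39.1 to 42.8%) of the 2854. At 1 time alone were 63 of the 163 (38.7%, 31.1 to 46.6%), against 28.0% (26.4 to 29.7%), and at 360 min alone 17 (10.4%, 6.19 to 16.2%), against 3.92% (3.24 to 4.70%). PR inside an unmarked region was thus listed less steadily over the time course than inside a marked one. Unmarked regions were also narrower, and the part of region width in this was not tested. These time patterns were not computed over all polymerase regions or for each marked class. The PR sites themselves were not narrower in unmarked regions. Their median width at 60 min was 343 bp (299 to 368 bp) over the 104 in unmarked regions. It was 317 bp (310 to 323 bp) over those in marked regions and 313 bp over all. Of these 104 sites, 5 reached into an H3K4 region beside the polymerase region. The midpoint of 67 lay within the polymerase region.

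The 5 widest unmarked regions with PR at all 4 times with hormone lay in different settings. The widest, at chr17:2591640-2593592 (1952 bp), was 211 bp from an H3K4me1 region and 117 bp from the next polymerase region. The second, at chr2:20649932-20650896 (964 bp), was 842 bp from an H3K4me3 region and in a chain of 6. The third stood alone at chr4:129149135-129149895 (760 bp), 12980 bp from a mark and 58847 bp from other polymerase. It held 1 PR site in the 5 and 360 min lists and 2 in the 30 and 60 min lists, and each of these lists had 4 to 5 within 10 kb of it. The fourth, at chr6:108454822-108455445 (623 bp), was the most remote, 57608 bp from a mark. The fifth, at chr5:35048843-35049439 (596 bp), is the one in the chain of 33.

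Within 10 kb, PR sites were common. At 0 min 40 unmarked regions (0.747%, 0.534 to 1.02%) had a PR site inside or within 10 kb, against 2.56% of all polymerase regions and 2.93% of marked ones. At 5 min 1113 (20.8%, 19.7 to 21.9%) had one, against 33.9% of all and 36.6% (36.0 to 37.2%) of marked regions. At 30 min 1328 (24.8%) compared with 36.8% and 39.3%, and at 60 min 1382 (25.8%, 24.6 to 27.0%) with 37.4% and 39.8% (39.2 to 40.4%). At 360 min it was 1450 (27.1%, 25.9 to 28.3%), against 37.3% and 39.5% (38.9 to 40.1%). Over the 4 times with hormone the share was 12.5 to 16.05% with the wider 50% of PR sites, 11.1 to 14.2% in a window of 5 kb and 36.5 to 45.1% in one of 20 kb. At 0 min these gave 0.243%, 0.411% and 1.46%. Regions with H3K4me3 alone had a share of 19.1% at 5 min (17.8 to 20.5%), whose interval overlapped that of unmarked regions. Their shares were below the unmarked ones at 0 min (0.191%, 0.07 to 0.414%), at 60 min (22.6%, 21.2 to 24.1%) and at 360 min (21.4%, 20.01 to 22.9%).

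PR within 10 kb of unmarked regions was listed more often at later times. The share was 1.30 times as high at 360 min as at 5 min, against 1.08 times for marked regions and 1.12 times for those with H3K4me3 alone. For PR inside an unmarked region the same ratio was 0.934. As a fraction of the marked share, it was 0.567, 0.632, 0.649 and 0.686 in the 5, 30, 60 and 360 min lists in order. The PR lists held 22973, 25872, 24436 and 23841 sites in the same order, so the 5 min list was the shortest and the 30 min list the longest. The part of list length in these shares was not tested. With 1 library per time, depth and threshold cannot be told apart from time. The median distance from an unmarked region to the nearest PR site was 1577348 bp before hormone. With hormone it was 32397 bp (31146 to 33895 bp) at 5 min, then 26104, 25194 and, at 360 min, 23799 bp (22822 to 25207 bp). Over marked regions it was 1049243.5 bp before hormone and 21438, 17991, 17419 and 17039 bp with it.

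Of the 2049 unmarked regions with a PR site within 10 kb at any time, 724 (35.3%, 33.3 to 37.4%) had one at all 4 times with hormone, against 50.1% (49.3 to 50.9%) of the 13608 marked ones. PR was near at 360 min alone for 245 (11.96%, 10.6 to 13.4%), against 5.53% (5.15 to 5.92%), and at 5 min alone for 181 (8.83%, 7.64 to 10.1%), against 6.94% (6.52 to 7.38%). Mostly a single site was near. At 60 min, 938 unmarked regions had 1 PR site within 10 kb, 297 had 2 and 147 had 3 or more (2.75%, 2.32 to 3.22%), against 2241 marked regions with 3 or more (8.70%, 8.36 to 9.05%). The largest number near 1 unmarked region was 1 in the list before hormone, 9 in the 5 min list and 6 to 8 in the later ones.

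The PR sites within 10 kb of unmarked regions lay partly in H3K4 regions. Of the 1241 such sites of the 60 min list, those inside unmarked regions included, 703 (56.6%, 53.8 to 59.4%) overlapped an H3K4 region, against 49.2% (48.5 to 49.8%) of all 60 min sites. The 104 sites inside unmarked regions lower this share by the rule, and without them it was 61.4% (58.5 to 64.2%). For all sites within 10 kb the share was 58.5% (55.5 to 61.5%) at 5 min and 52.3% (49.5 to 55.05%) at 360 min. That over all PR sites was 51.8% and 45.8%. Most unmarked regions lie near H3K4 regions, and the part of this in these shares was not tested. Unmarked regions near a mark had PR nearby more often. At 60 min the share with PR within 10 kb was 35.1% (32.4 to 37.9%) under 1 kb from a mark, 28.7% at 1 to 5 kb, 23.3% at 5 to 10 kb and 14.2% (12.2 to 16.4%) at 10 to 50 kb. Among the 150 regions at 50 kb or more it was 19.3% (13.3 to 26.6%).

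The later listing was found near to marks and away from them. Under 1 kb from a mark the share was 29.5% (26.9 to 32.1%) at 5 min and 34.8% (32.2 to 37.6%) at 360 min. At 5 to 10 kb it was 15.1% (12.95 to 17.5%) at 5 min and 23.9% (21.3 to 26.6%) at 360 min. At 10 to 50 kb these shares were 10.2% (8.49 to 12.1%) and 17.2% (15.04 to 19.5%). At 50 kb or more the intervals of both times overlapped, at 16.0% (10.5 to 22.9%) and 19.3% (13.3 to 26.6%). For PR inside the region, the most remote class had a higher share at 5 and 60 min than the class at 10 to 50 kb. At 5 min 10 of the 150 regions at 50 kb or more from a mark held a PR site (6.67%, 3.24 to 11.9%), and at 60 min 9 (6.0%, 2.78 to 11.1%), against 12 (1.06%, 0.551 to 1.85%) and 13 (1.15%, 0.615 to 1.96%) of the 1128 at 10 to 50 kb. Under 1 kb from a mark it was 3.39% (2.44 to 4.57%) at 5 min and 3.55% (2.58 to 4.75%) at 60 min, so at these times the share was lowest between 1 and 50 kb and higher at either end. The intervals of both end classes overlapped. Over all polymerase regions the shares were 6.5% at 5 min and 6.85% at 60 min, near those of the most remote class. At 360 min 5 of the 150 held PR (3.33%, 1.09 to 7.61%), and this interval overlapped that of the regions at 10 to 50 kb (1.33%, 0.746 to 2.18%).

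**Figure D4:**
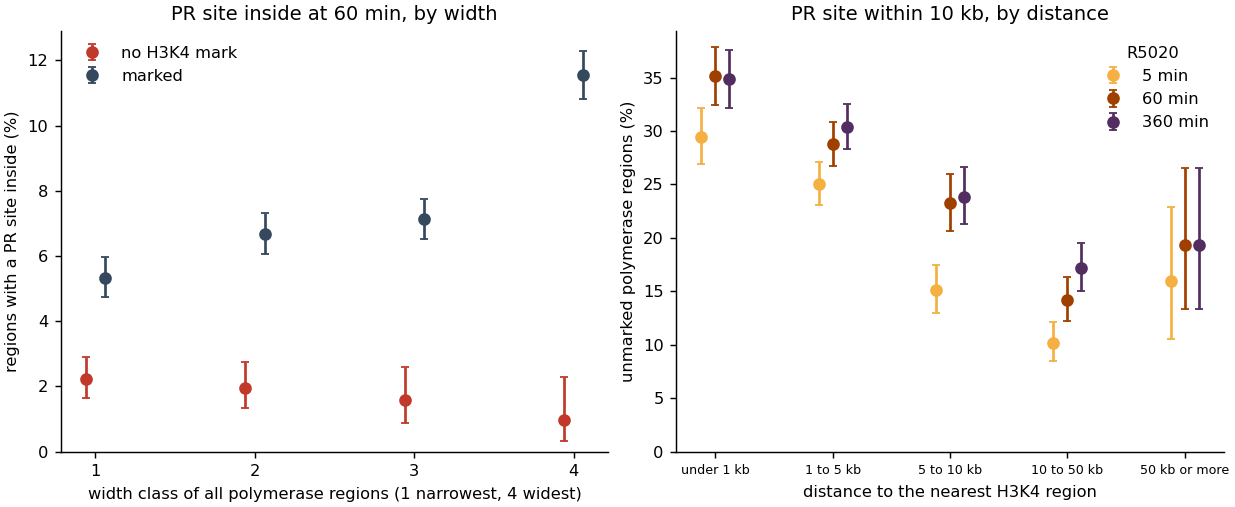
Left, share of unmarked (red) and marked (dark) polymerase regions with a PR site inside at 60 min, by 4 width classes of all polymerase regions. Right, share of unmarked regions with a PR site within 10 kb at 5, 60 and 360 min, by distance to the nearest H3K4 region; bars are exact 95% intervals over regions. Marked regions go up to 11.5% in the widest class while unmarked ones stay between 0.986 and 2.21%, and the 5 min points lie below the 360 min points in each distance class.

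The authors' deposited table gives normalized reads from digestion with micrococcal nuclease (MNase), an enzyme that spares DNA wrapped in nucleosomes, at each PR site of the 60 min list. The MNase libraries are not among the libraries described above. Their labels name only unstimulated cells and R5020, without the dose, the time with hormone or the number of cultures. In the authors' deposited table the 104 sites in unmarked polymerase regions had a median of 54.5 normalized reads after R5020 (47 to 68) and 87.5 without hormone (77 to 97). The authors' ratio, which is the unstimulated value over the R5020 value, was above 1 at 95 of the 104 in the authors' deposited table (91.3%, 84.2 to 96.0%), against 78.0% of all sites. The authors' deposited table had a ratio above 1 at 98.0% of sites in marked polymerase regions, 87.3% of those in H3K4 regions without polymerase and 67.0% of those in none of the 3 lists, so most sites of each class exceeded 1. Its median was 1.46 (1.41 to 1.67, quartiles 1.21 and 1.95) in the authors' deposited table, with a range of 0.75 to 5.39. The intervals of the medians come from ranks over sites and take sites as independent.

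That ratio stood between those of other PR sites. In the authors' deposited table its median was 2.06 (2.01 to 2.10) at PR sites in marked polymerase regions, 1.43 (1.42 to 1.44) at sites in H3K4 regions without polymerase and 1.14 (1.13 to 1.15) at sites in none of the 3 lists. The interval for unmarked polymerase regions was thus below that for marked ones, above that for sites in no list, and overlapped that for H3K4 without polymerase. From the authors' deposited table, a ratio above 2 was found at 22 of the 104 sites (21.2%, 13.8 to 30.3%), against 13.0% of all sites, 52.7% of sites in marked polymerase regions and 3.63% of sites in no list. The 16.2% of sites in H3K4 regions without polymerase, from the authors' deposited table, lay inside the interval for unmarked polymerase regions.

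Read density in the unstimulated cells also differed between these classes. Per 100 bp it was 25.6 (22.5 to 27.9) in unmarked polymerase regions in the authors' deposited table, against 38.8 (38.1 to 39.9) in marked ones and 25.2 in no list. After R5020 the values from the authors' deposited table were 15.5 (14.4 to 19.1), 19.6 (19.01 to 20.2) and 22.04 (21.8 to 22.3). The interval for unmarked polymerase regions thus included the median of sites in no list before hormone and lay below it after R5020. In 4 classes of unstimulated read density, from low to high, the authors' deposited table gave median ratios of 1.385, 1.525, 1.48 and 1.67 in unmarked polymerase regions. They lay below the 2.09, 1.95, 2.02 and 2.11 of marked ones and above the 1.02, 1.18, 1.19 and 1.26 of sites in no list. In the upper 2 classes, with 21 and 13 sites in unmarked regions, the intervals of 1.12 to 2.05 and 1.41 to 2.18 included the median of the marked class, and the first of them also included that of sites in no list.

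**Figure D5:**
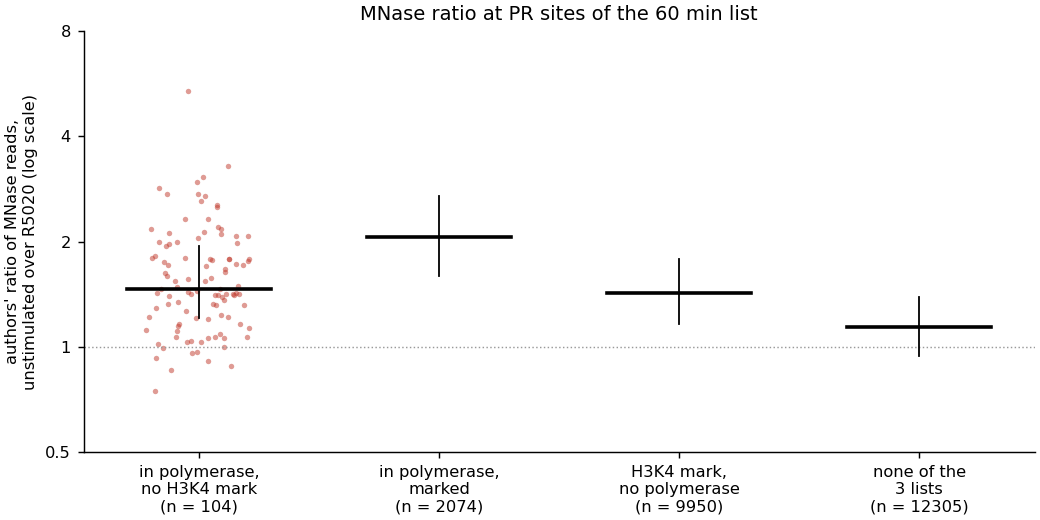
The authors' ratio of MNase reads (unstimulated over R5020, log scale) at PR sites of the 60 min list, by the chromatin lists they overlap; thick lines are medians, thin lines quartiles, and red points are the 104 single sites in unmarked polymerase regions. The median there is 1.46, between 2.06 for marked polymerase regions and 1.14 for sites in none of the 3 lists.

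Among the named regions, the PR site in the 3402 bp region on chromosome 16 (2136210 to 2136468) had 29 reads after R5020 and 86 before it in the authors' deposited table, a ratio of 2.97. The site in the 1952 bp region on chromosome 17 (2591663 to 2592007) had 50 and 106 reads in the authors' deposited table, a ratio of 2.12, and the site in the remote region on chromosome 6 (108454783 to 108455044) had 33 and 84, a ratio of 2.55. In the authors' deposited table the site on chromosome 2 (20650392 to 20651138) had 101 and 143 reads (1.42), and the site in the chain on chromosome 5 (35049160 to 35049468) had 115 and 184 (1.60). The region on chromosome 4 had 2 sites in the authors' deposited table, with 42 and 83 reads (1.98) and 39 and 61 reads (1.56). All these PR sites had fewer reads after R5020 than in unstimulated cells. Since a different scaling of either MNase library would shift every ratio alike, the order of the classes can be read and the distance from 1 cannot.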

How the data were processed

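The PR, H3K4me1, H3K4me3 and polymerase lists were deposited by the authors as chromosome, start and end 1 list per library. The build is hg19, per the submitters' processing notes and file headers. Aligner, caller, thresholds, controls and depth: not given in the sources used here. No p-value was computed. The MNase values are the authors' normalized read numbers per 60 min PR site, whole numbers treated as a score rather than raw counts, and the ratio is the authors' own, per the file headers. How they were normalized is not given.

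Here, width was end minus start, regions overlapped where they shared 1 bp, and distances ran between edges. Mitochondrial regions were left out. Shares carry exact (Clopper-Pearson) 95% intervals. Medians carry 95% intervals from ranks. A share of 0 is given with the upper end of its exact interval, and for the long chains also with the limit that 3 counts would set. Overlaps and distances were tested on simulated regions planted at known places and against bedtools. The members, lists and named regions were chosen with earlier results of these data known. Named were the 5 widest unmarked regions, the 5 widest with PR at all 4 times with hormone, those with PR at 0 min, the 5 leading chains, the 5 farthest from a mark and the 3 nearest to the rule's edge on each side. Regions of chromosome 8 were counted but not named. Gene lists were not used, for want of an annotation on the build of the files. Alternatives were other overlaps, windows and subsets of the lists. Software was Matplotlib 3.10.9, SciPy 1.17.1, NumPy 2.4.6, pandas 2.3.3 and Python 3.11.15.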

Additional observations from a re-analysis of the deposited data

Results flagged for a closer look

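The polymerase list also held 15 regions on the mitochondrial chromosome, which the choice of regions leaves out, above the limit of 3 counts, in data outside the comparisons above. The H3K4me3 list had 3 regions there, and the H3K4me1 list and the 5 PR lists had 0.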

How the results depend on the processing

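Across 11 alternatives, unmarked regions had PR inside or within 10 kb less often than marked ones in all 85 comparisons (5 times, each alternative that bears on them), although at 0 min the intervals overlapped with the wider 50% of H3K4 regions (0.277% and 0.395% inside). With hormone the unmarked share was 0.119 to 0.377 times the marked one inside and 0.403 to 0.846 times within 10 kb. The ratio of the 10 kb share at 360 min to that at 5 min was 1.22 to 1.51 for unmarked and 0.986 to 1.10 for marked regions under 9 alternatives, and larger for the unmarked in each. Counting regions within 1 kb of a mark as marked gave 1.42% with PR inside at 60 min, 23.1% with PR within 10 kb, 70.7% with another polymerase region within 10 kb and a median of 5747 bp to a mark. With the wider 50% of H3K4 regions these were 2.94%, 27.1%, 71.3% and 5548 bp, and the median width was 362 bp. With the wider 50% of polymerase regions there were 1464 unmarked regions, with a median width of 666 bp, 3153 bp to a mark and 1.37% with PR inside. Merging polymerase regions within 500 bp gave 66.3% with a polymerase neighbour and 4325 bp. The wider 50% of PR sites gave 1.12% and 15.1%, and PR midpoints 1.23%. Windows of 5 and 20 kb gave 14.05% and 43.0% with PR near, and 64.3% and 83.4% with a polymerase neighbour. Of 204 values for unmarked and marked regions under the alternatives, 100 fell outside the limit set for them. That limit was the interval of the reported value, except for the number of unmarked regions. The alternatives reuse the same lists, so the 85 comparisons are not independent. The cause of these shifts was not tested. The median MNase ratio from the authors' deposited table stayed within its interval, at 1.43 to 1.58. No paired analysis was possible because each group holds 1 library. The unknown depth limits each list, so a region not listed is not shown to be unbound.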

Other observations

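The unmarked share of polymerase regions differed between chromosomes, with counting intervals apart between the extremes. It was highest on chromosome 21, with 94 of 343 regions (27.4%, 22.8 to 32.5%), and on chromosome X, with 115 of 464 (24.8%, 20.9 to 29.0%), and lowest on chromosome 17, with 359 of 2894 (12.4%, 11.2 to 13.7%), with a median of 18.03% over 23 chromosomes. Of the 94 on chromosome 21, 21 formed the single chain at chr21:23375030-23410625, which held no marked polymerase region. The rank of chromosome 21 above chromosome X therefore cannot be read apart from this 1 locus. The share without that chain was not computed. H3K4me1 regions numbered 22.7 per Mb on chromosome 21, 3.83 on chromosome X and 59.3 on chromosome 17. Whether the density of that list sets the unmarked share was not tested.

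Unmarked regions were present in 1284 windows of 1 Mb, with a median of 2 per window, and 143 windows with 10 or more held 2112 of them. In 110 windows they outnumbered marked polymerase regions. The fullest window was on chromosome 3 between 8 and 9 Mb, with 56 unmarked and 24 marked regions. These 56 are the members of the longest chain described above. Next came chromosome 5 between 35 and 36 Mb, with 46 and 119, where 33 of the unmarked regions formed the second chain. Chromosome 12 between 56 and 57 Mb had 38 and 106, and chromosome 4 between 37 and 38 Mb had 30 and 22.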
